A study of Alligator mississippiensis with 17 samples.

Results

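The fibroblast growth factor (FGF) ligands of the tooth bud were followed through the tooth cycle of the American alligator. The members were chosen by name from a list of 10 ligands that are known from tooth development in other animals. Of these, 9 were listed among the 20703 genes of the deposited table, namely FGF2, FGF3, FGF4, FGF7, FGF9, FGF10, FGF16, FGF18 and FGF20. FGF8 was not analysed here. Alligator teeth are renewed for life, and new ones arise from the dental lamina, a strand of epithelium beside the tooth in function. The samples were replacement teeth (RT, 5 libraries) and dental lamina, taken before a new tooth was initiated (PIS, 5 libraries), while it was initiated (IS, 3 libraries) or during its early growth (EG, 4 libraries). All animals were untreated, were raised in the laboratory at 30 °C and were 1 year old. Whether the libraries of a group are from different animals is not given in the labels, so a p-value here reflects only library-to-library spread, which may be technical.

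FGFs are secreted proteins that bind receptor tyrosine kinases on nearby cells, with heparan sulfate chains as a partner, and switch on the RAS-ERK cascade. In mouse teeth the ligands pass between the tissue layers. Fgf4, Fgf9 and Fgf20 are made by the dental epithelium, including its signalling centre, the enamel knot. Fgf3, Fgf7 and Fgf10 are made mainly by the mesenchyme and act on the epithelium through the IIIb form of FGFR2. Which layer makes each ligand in the alligator was not measured, because the libraries were made from dissected tissue as a whole.

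The labelled tissues were checked against marker genes. The summed level of 9 listed epithelial markers, among them EPCAM and KRT14, was 99.5 to 610 RPKM (reads scaled to gene model length and library alignments) in RT, 104 to 636 RPKM in PIS, 762 to 915 RPKM in IS and 815 to 1046 RPKM in EG. PIS replicate 5 was the low PIS library at 104 RPKM, against 483 RPKM or more in the other PIS libraries. The summed level of 13 dental mesenchyme markers was 55.3 to 169 RPKM in RT, 208 to 295 RPKM in PIS, 212 to 356 RPKM in IS and 158 to 215 RPKM in EG. The dental lamina samples therefore held mesenchyme markers beside epithelial ones. The 4 listed enamel matrix genes summed to 50.6 to 5803 RPKM in RT and 137 to 2514 RPKM in EG, and to at most 4.14 RPKM in PIS and 1.01 RPKM in IS. Endothelial and mural markers (10 listed) summed to 11.95 to 61.1 RPKM in RT, 137 to 346 RPKM in PIS, 90.6 to 105 RPKM in IS and 38.1 to 83.1 RPKM in EG. Nerve and Schwann markers (5 listed) summed to 1.28 to 4.90 RPKM in RT, 21.2 to 281 RPKM in PIS, 12.1 to 76.6 RPKM in IS and 7.53 to 33.6 RPKM in EG, and leukocyte markers (7 listed) to 8.83 to 23.8 RPKM in RT, 8.001 to 14.7 RPKM in PIS, 24.6 to 33.5 RPKM in IS and 13.5 to 21.2 RPKM in EG. Vessel markers were thus highest in PIS and leukocyte markers in IS, and nerve markers reached their highest values in PIS with overlap between the stages. Fibroblast markers summed to 7173 and 10816 RPKM in RT replicates 1 and 2, and to 23956 to 44454 RPKM in RT replicates 3, 4 and 5. The endothelial and mural sums divided the RT libraries in the same way, at 26.9 and 11.95 RPKM against 51.0 to 61.1 RPKM. So did the leukocyte sums, at 10.96 and 8.83 RPKM against 18.6 to 23.8 RPKM. Odontoblast and bone sums were 225 and 394 RPKM against 721 to 3659 RPKM. Enamel knot and inner enamel epithelium sums were higher in replicates 1 and 2, at 289 and 500 RPKM against 147 to 194 RPKM. The epithelial and enamel matrix sums did not divide them. EPCAM (96.4 and 182 RPKM against 18.1 to 70.1 RPKM) and CDH1 were higher in replicates 1 and 2. KRT14 and KRT15 overlapped. The RT libraries thus fell apart in some of their tissue markers, and RT calls that turn on replicates 1 and 2 are given below with and without them.

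Together the 9 ligands summed to 32.5 to 74.4 RPKM in IS and 32.1 to 94.5 RPKM in EG, against 20.0 to 29.7 RPKM in PIS. In RT the sum was 40.6 RPKM in replicate 1, 14.5 RPKM in replicate 2 and 3.05 to 4.39 RPKM in the other 3 libraries. The mix also differed between stages. FGF2 held 33.5% ± 21.2 of the sum in RT (SD, n = 5). FGF7 led in PIS with 45.7% ± 14.3 (SD, n = 5), and FGF3 led in IS with 38.8% ± 8.68 (SD, n = 3) and in EG with 46.7% ± 18.4 (SD, n = 4). FGF10 held 26.4% ± 0.85 of the sum in IS (SD, n = 3) and 24.3% ± 4.07 in EG (SD, n = 4), against 12.1% ± 5.67 in PIS (SD, n = 5). These shares are descriptions, and no test was made of them.

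**Figure D1:**
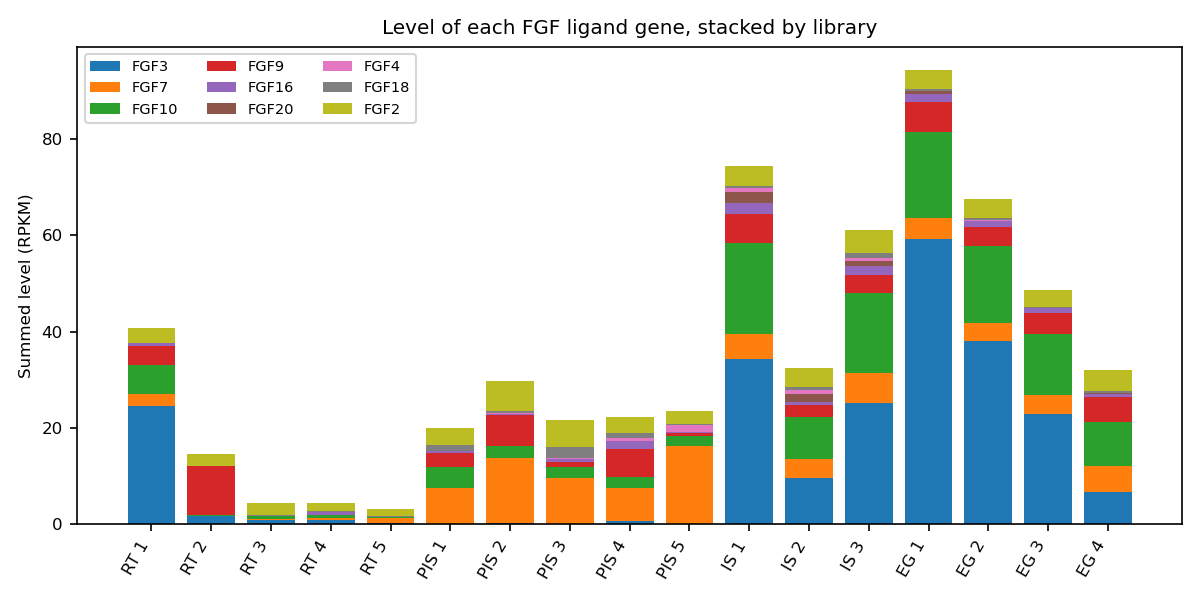
Stacked bars of the RPKM of the 9 listed FGF ligands, 1 bar for each library of RT, PIS, IS and EG. The bars reach 20.0 to 29.7 RPKM in PIS, where FGF7 takes the greatest mean share, and 32.1 to 94.5 RPKM in IS and EG, where FGF3 does.

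Differences were tested with limma on log2(RPKM + 0.5), a scale that understates the change of genes near 0, and a gene was called where its p, adjusted over all genes by Benjamini-Hochberg, was under 0.05. A gene was tested where at least 3 libraries held 1 RPKM or more. Of the 9 listed ligands, 7 were tested and FGF4 and FGF20 were not. Among the 3 dental lamina stages, limma's F test called 3 of the 7, FGF3, FGF7 and FGF10, where 45.4% of all genes tested were called. The ligands called were thus near the share of all genes. These 3 belong to the same subfamily, named after FGF7, whose members bind the IIIb receptor forms. They did not move alike, as FGF3 and FGF10 were higher and FGF7 lower in IS and EG than in PIS. FGF22, of the same subfamily, was not among the 7. Whether the subfamily as a set differed from other ligands was not tested.

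FGF3, a ligand of the dental mesenchyme in mouse teeth, had 34.3, 9.50 and 25.1 RPKM in the IS libraries, against 0, 0.0792, 0, 0.496 and 0 RPKM in the PIS libraries. In EG it had 59.3, 38.0, 22.8 and 6.73 RPKM. Every IS and EG library lay above every PIS library, 3 of the 5 PIS libraries were listed at 0, and the EG libraries spanned the whole IS range. FGF3 passed the filter of the dental lamina fit through its IS and EG libraries alone, as 0 PIS libraries reached 1 RPKM. The filter thus favoured calls of higher in IS and EG for this gene. FGF3 rose by 5.13 ± 0.57 on the log2 scale in IS against PIS (SE, adjusted p = 0.00040 by limma) and by 5.40 ± 0.53 in EG against PIS (SE, adjusted p = 5.27e-05 by limma). EG and IS differed by 0.27 with an interval of -1.03 to 1.56 (95%, limma). The interval thus left room for a fall of up to 1.03 or a rise of up to 1.56 on the log2 scale in EG. The size of the rise depended on the pseudocount, because PIS was near 0, and ranged from 4.28 to 6.98 for IS against PIS over the alternatives run.

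FGF10, the mesenchymal ligand that in mice is needed to keep the stem cells of the incisor's cervical loop, had 18.9, 8.65 and 16.6 RPKM in IS, against 4.40, 2.48, 2.39, 2.31 and 1.99 RPKM in PIS. In EG it had 17.9, 16.02, 12.8 and 9.13 RPKM. The IS and EG libraries lay above all PIS libraries and overlapped each other. FGF10 rose by 2.21 ± 0.29 in IS against PIS (SE, adjusted p = 0.00076 by limma) and by 2.17 ± 0.26 in EG against PIS (SE, adjusted p = 0.00013 by limma). Unlike FGF3, FGF10 was measured above 1 RPKM in every PIS library. Of 8 tested epithelial markers, 2 were called higher in IS against PIS and 7 in EG against PIS (0 and 1 after median-ratio scaling). Of 9 enamel knot and inner enamel epithelium genes, 5 and 6 were (3 and 6 after scaling), with 0 lower in either list. Over all genes 22.7% and 42.9% were called higher (6.5% and 17.5% after scaling). The part of these tissues in the FGF3 and FGF10 values was not tested.

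FGF7, or keratinocyte growth factor, a mesenchymal ligand that acts on epithelium, moved the other way. It had 5.19, 4.02 and 6.23 RPKM in IS, against 7.45, 13.7, 9.53, 7.01 and 16.2 RPKM in PIS. In EG it had 4.37, 3.88, 3.94 and 5.29 RPKM. No IS or EG library reached the lowest PIS library, and the PIS libraries spread more than the others. FGF7 fell by 0.95 ± 0.25 on the log2 scale in IS against PIS (SE, adjusted p = 0.019 by limma) and by 1.15 ± 0.23 in EG against PIS (SE, adjusted p = 0.0018 by limma). Markers of some other tissues moved with it, and others did not. Endothelial and mural genes were called lower in 7 of 10 in IS against PIS and in 8 of 10 in EG against PIS, and nerve and Schwann genes in 3 of 5 and in 5 of 5, where 2.25% and 7.58% of all genes were called lower. PIS replicate 5, the highest library for FGF7, was also the highest for the summed endothelial and mural level (346 RPKM) and for the nerve and Schwann level (281 RPKM). In IS against PIS, leukocyte markers were called higher in 4 of 5 and dental mesenchyme markers in 4 of 13, with 0 lower in either list. Of 9 fibroblast markers 0 were called there. In EG against PIS, 4 of 9 fibroblast markers were lower and 0 higher. Of 13 dental mesenchyme markers 3 were lower and 1 higher, and 3 of 5 leukocyte markers were higher. Over all genes 22.7% and 42.9% were called higher in these comparisons. After median-ratio scaling, 10 endothelial and mural, 5 nerve and Schwann, 7 fibroblast and 4 dental mesenchyme markers were lower in EG against PIS. In these lists 0 markers were higher, and 0 leukocyte markers were called, beside 17.5% of all genes higher and 14.8% lower. In IS against PIS, scaling gave 8, 3, 1 and 1 lower in that order, with 2 dental mesenchyme and 4 leukocyte markers higher. There 6.5% of all genes were higher and 5.09% lower. The part of these tissues in the FGF7 values was not tested. The call at initiation was lost when IS replicate 1 or IS replicate 2 was left out (adjusted p = 0.067 and 0.066 by limma), and when the fit held the PIS and IS libraries alone (adjusted p = 0.054) or all 17 libraries (adjusted p = 0.13). The call of EG against PIS was kept under every alternative run (adjusted p of 0.00035 to 0.029 by limma).

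**Figure D2:**
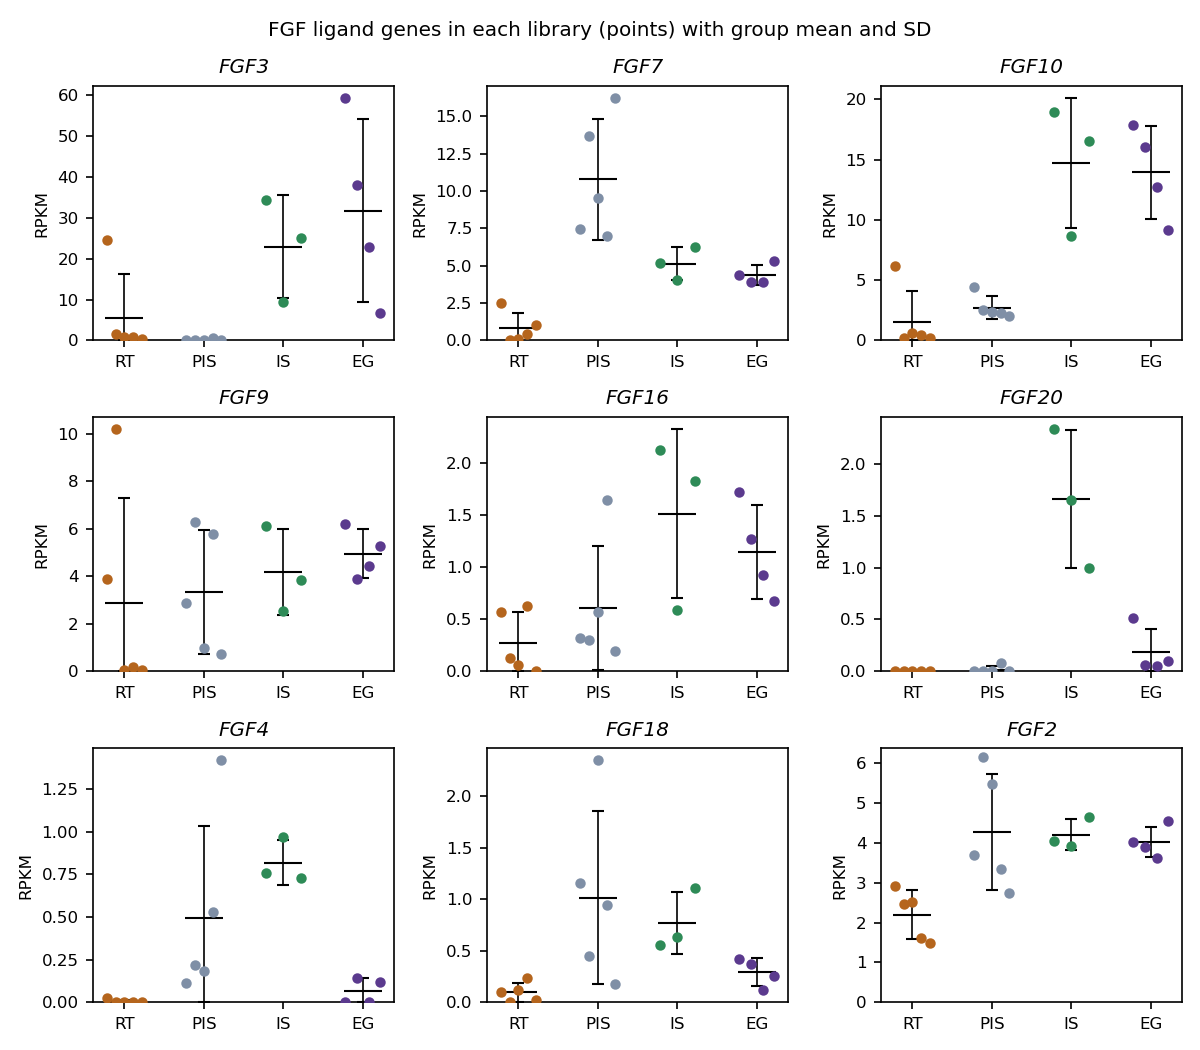
RPKM of each of the 9 listed FGF ligands in every library (points) of RT, PIS, IS and EG, with the group mean and SD as lines, each panel on its own linear axis. FGF3 was at or below 0.496 RPKM in all PIS libraries and at or above 6.73 RPKM in all IS and EG libraries, while FGF7 was highest in PIS.

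As a direct comparison of these ligands within a library, the difference of their log2(RPKM + 0.5) values was taken, FGF10 over FGF7. This measure was chosen after the values were seen. It was 1.38 ± 0.38 in IS (SD, n = 3), against -1.78 ± 0.78 in PIS (SD, n = 5), and 1.54 ± 0.56 in EG (SD, n = 4). FGF10 thus lay above FGF7 in each of the 7 IS and EG libraries and below it in each of the 5 PIS libraries. The difference between IS and PIS was 3.16 (exact two-sided permutation p = 0.036, the smallest this design allows) and between EG and PIS 3.32 (exact two-sided permutation p = 0.016, likewise the smallest). Adjusted over the 4 group comparisons made with this ratio, both became 0.063 (exact permutation test, Benjamini-Hochberg), so neither passed the threshold.

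FGF3 and FGF10 also varied together within IS and within EG, but not within PIS. FGF10 was highest in PIS replicate 1 (4.40 RPKM), where FGF3 was listed at 0. FGF3 was highest in PIS replicate 4 (0.496 RPKM), where FGF10 had 2.31 RPKM. In the IS libraries, replicate 2 was the lowest for FGF3, FGF7, FGF9, FGF10 and FGF16, and it held the highest summed fibroblast level, 12083 RPKM against 4832 and 5372 RPKM in the other IS libraries. In the EG libraries, FGF3, FGF10 and FGF16 were all highest in replicate 1 and lowest in replicate 4, and the summed enamel matrix level was 137, 244, 1443 and 2514 RPKM in replicates 1 to 4. The part of these tissue differences in the ligand levels was not tested. After each group's mean was taken out, Pearson's r between FGF3 and FGF10 was 0.87 over the 17 libraries, beside 0.79 with the group means left in. Both were the highest values among all pairs of tested ligands. RT replicate 1 stood far above the other RT libraries for both genes, at 24.5 RPKM against at most 1.56 RPKM for FGF3. For FGF10 it had 6.15 RPKM against at most 0.618 RPKM, and no coefficient of the pair was computed without this library. Among the other RT libraries, replicate 2 was the highest for FGF3 (1.56 RPKM) and the lowest for FGF10 (0.189 RPKM). These coefficients describe libraries that share their tissue make-up and depth, and they carry no test.

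The FGF9 subfamily is represented by FGF9, FGF16 and FGF20. FGF9, an epithelial ligand in mouse teeth, had 6.12, 2.55 and 3.84 RPKM in IS, against 2.88, 6.29, 1.004, 5.78 and 0.712 RPKM in PIS, and 6.22, 3.88, 4.45 and 5.28 RPKM in EG. All 3 stages overlapped, and the PIS libraries covered nearly the whole range. The IS and PIS means differed by 0.54 ± 0.51 (SE, adjusted p = 0.44 by limma), with an interval of -0.57 to 1.65 (95%). EG against PIS gave 0.82 ± 0.47 (SE, adjusted p = 0.16 by limma).

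FGF16, its close relative, had 2.12, 0.594 and 1.83 RPKM in IS, against 0.322, 0.305, 0.572, 1.65 and 0.201 RPKM in PIS, and 1.72, 1.27, 0.929 and 0.673 RPKM in EG. PIS replicate 4 lay within the IS and EG ranges, and the other 4 PIS libraries lay below them. The difference of IS and PIS was 0.89 ± 0.38 (SE, adjusted p = 0.10 by limma) and passed the threshold without PIS replicate 4 (1.17, adjusted p = 0.022) and without IS replicate 2 (1.29, adjusted p = 0.039). EG against PIS, at 0.66 ± 0.35 (SE, adjusted p = 0.13 by limma), also passed without PIS replicate 4 (0.93, adjusted p = 0.021). For FGF16, PIS replicate 4 was the highest PIS library and IS replicate 2 the lowest IS library. The larger differences without them follow from that choice, and the p-values of those fits are no added support. PIS replicate 4 held SHH, a marker of the enamel knot, at 23.5 RPKM, where the other PIS libraries had at most 0.241 RPKM.

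FGF20, an ectodysplasin target in mouse tooth epithelium, had 2.33, 1.65 and 0.9997 RPKM in IS. It was listed at 0 in 4 PIS libraries and at 0.0763 RPKM in PIS replicate 4, and had 0.519, 0.062, 0.0527 and 0.103 RPKM in EG. The IS libraries stood above every other library of the study, and all 5 RT libraries were listed at 0. FGF20 missed the filter by a narrow margin, because 1 of the 3 IS libraries lay just under 1 RPKM. In the fit with no filter it rose by 2.02 ± 0.22 in IS against PIS (SE, adjusted p = 0.00082 by limma) and fell by 1.66 ± 0.23 in EG against IS (SE, adjusted p = 0.0046 by limma), on the log2(RPKM + 0.5) scale. It was the 1 ligand that the fit with no filter called between EG and IS.

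FGF4, an enamel knot ligand in mouse, had 0.758, 0.970 and 0.726 RPKM in IS, against 0.113, 0.218, 0.187, 0.531 and 1.42 RPKM in PIS, and 0, 0.144, 0 and 0.119 RPKM in EG. The IS libraries lay above all EG libraries and within the PIS range. With no filter, EG against IS gave -1.23 ± 0.32 (SE, adjusted p = 0.093 by limma), which did not pass, while the F test among the stages did (adjusted p = 0.034 by limma). FGF4 was listed at 0 in 4 RT libraries and at 0.0243 RPKM in RT replicate 1, and with no filter it fell in RT against dental lamina (-0.79 ± 0.19, SE, adjusted p = 0.0060 by limma). Shares over all genes in these fits with no filter are not given here, so the FGF4 calls cannot be read as particular to it.

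FGF18, of the FGF8 subfamily, had 0.423, 0.373, 0.119 and 0.252 RPKM in EG, against 0.557, 0.636 and 1.11 RPKM in IS and 1.16, 0.454, 2.35, 0.948 and 0.177 RPKM in PIS. Its EG libraries all lay below its IS libraries, as did those of 8.81% of all genes tested, but PIS replicate 5 lay among the EG libraries. EG against PIS gave -0.78 ± 0.35 (SE, adjusted p = 0.077 by limma) and passed the threshold without PIS replicate 5 (-1.03, adjusted p = 0.015). That library was the lowest PIS library for FGF18, so the larger fall follows from leaving it out and is no added support. EG against IS gave -0.67 ± 0.40 (SE, adjusted p = 0.48 by limma).

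FGF2, a ligand that lacks a classical signal peptide and is stored on matrix heparan sulfate, was not called between any stages of the lamina. It had 4.04, 3.92 and 4.65 RPKM in IS, against 3.70, 6.14, 5.47, 3.33 and 2.73 RPKM in PIS, and 4.01, 3.90, 3.63 and 4.53 RPKM in EG. The IS and EG values lay inside the PIS range. IS against PIS gave 0.03 with an interval of -0.43 to 0.49 (95%, limma), and EG against PIS gave -0.03 with an interval of -0.45 to 0.39 (95%, limma). The sign of these differences turned with the scaling or with single libraries.

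Set against all genes, the ligands' calls read as follows. In IS against PIS, 2 of the 7 tested ligands were called higher and 1 lower, while 22.7% of the tested genes were higher and 2.25% lower. In EG against PIS the same 2 were higher and the same 1 lower, while 42.9% of all genes stood higher and 7.58% lower. Of the 2, FGF3 passed the filter through IS and EG libraries alone, which favoured its calls. The ligands' median difference was 0.54 and 0.66 in these comparisons, beside 0.28 and 0.34 over all genes, and both comparisons share the PIS libraries. After median-ratio scaling, which brings the median gene near 0, FGF3 and FGF10 were again called higher and FGF7 lower in both comparisons. After that scaling 6.5% of genes were called higher and 5.09% lower in IS against PIS, and 17.5% higher and 14.8% lower in EG against PIS. The calls of these 3 ligands were also free of overlap between libraries. In IS against PIS, 24.9% of genes lay above without overlap and 2.21% below, and in EG against PIS 34.7% lay above and 4.98% below. Between EG and IS, limma called 0 of the 7 ligands, and 0 had an unadjusted p under 0.05, while 2.15% of all genes were called. With array weights, which let limma give libraries unequal weight, FGF7, FGF16 and FGF18 were called lower in EG than in IS (adjusted p = 0.017, 0.029 and 0.00095). Array weights also raised the number of calls over all genes in EG against IS, far above the 2.15% of the main fit. These 3 calls therefore cannot be read as particular to the ligands.

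**Figure D3:**
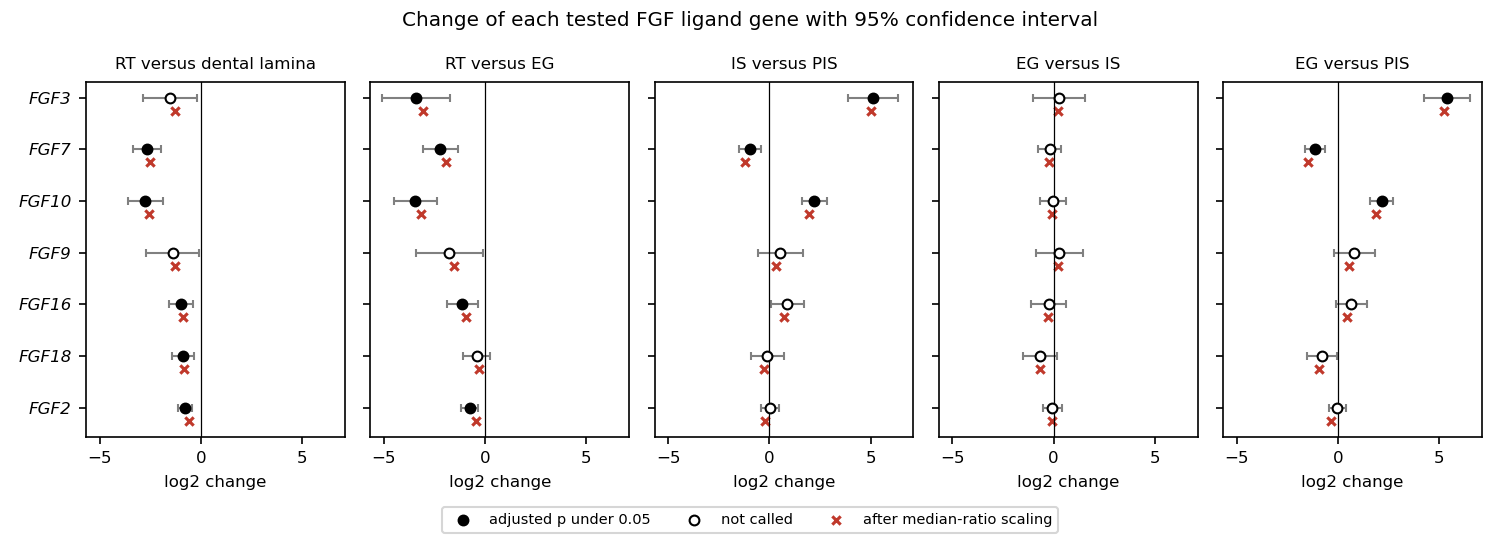
Differences of log2(RPKM + 0.5) for the 7 tested FGF ligands in RT against dental lamina, RT against EG, IS against PIS, EG against IS and EG against PIS, as circles with 95% intervals from limma, and as crosses after median-ratio scaling. Filled circles passed the adjusted p threshold of 0.05, which FGF3, FGF10 and FGF7 did in IS against PIS and in EG against PIS.

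In replacement teeth most ligands were low. FGF7 had 2.50, 0, 0.0999, 0.424 and 1.01 RPKM in RT, against 3.88 to 16.2 RPKM over the 12 dental lamina libraries. FGF10 had 6.15, 0.189, 0.618, 0.452 and 0.208 RPKM in RT, against 1.99 to 18.9 RPKM in dental lamina. All RT libraries lay below all dental lamina libraries for FGF7, and for FGF10 all but RT replicate 1 did. Against the mean of the 3 stages, FGF7 fell by 2.66 ± 0.32 (SE, adjusted p = 1.07e-05 by limma) and FGF10 by 2.75 ± 0.40 (SE, adjusted p = 6.62e-05 by limma) in RT. In whole tissue, fewer cells of a type and less RNA per cell cannot be told apart. Marker lists of the tissue layers moved both ways in RT against dental lamina. Of 13 dental mesenchyme markers 8 were called lower (5 after median-ratio scaling), and of 8 tested epithelial markers 4 were (4 after scaling), where 36.3% of all genes were called lower (17.5% after scaling). In other lists more genes rose than fell. Of 9 fibroblast markers 4 were called higher and 2 lower (4 and 1 after scaling). Of 6 odontoblast and bone genes 3 were higher and 1 lower, and of 4 enamel matrix genes 4 and 0, both unchanged by scaling. Of 9 enamel knot and inner enamel epithelium genes 3 were higher and 3 lower (4 and 2 after scaling). Over all genes 10.5% were called higher (20% after scaling). The part of these tissues in the ligand values was not tested.

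FGF2 had 2.92, 2.45, 2.51, 1.62 and 1.49 RPKM in RT, against 2.73 to 6.14 RPKM in dental lamina, and fell by 0.80 ± 0.17 (SE, adjusted p = 0.0012 by limma). FGF16 had 0 to 0.624 RPKM in RT, against 0.201 to 2.12 RPKM in dental lamina, and fell by 0.99 ± 0.29 (SE, adjusted p = 0.011 by limma). FGF18 had 0 to 0.236 RPKM in RT, against 0.119 to 2.35 RPKM in dental lamina, and fell by 0.89 ± 0.25 (SE, adjusted p = 0.0094 by limma). The RT and dental lamina ranges of all 3 overlapped, and for FGF16 the lamina libraries inside the RT range were PIS replicates 1, 2, 3 and 5 and IS replicate 2. In all, 5 of 7 ligands were called lower in RT and 0 higher, while 36.3% of all genes were called lower and 10.5% higher. Of the 5, FGF16 and FGF18 passed the filter through dental lamina libraries alone (5 and 3 at 1 RPKM or more, 0 in RT). For both, the filter thus favoured a call of lower in RT. All 5 calls were kept after median-ratio scaling, under which 17.5% of genes were lower. Only FGF7 of the 7 had all RT libraries below all dental lamina libraries, as had 6.08% of genes.

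FGF3 and FGF9 divided the RT libraries. FGF3 had 24.5, 1.56, 0.852, 0.865 and 0.266 RPKM in RT, with replicate 1 inside the IS and EG ranges and the rest far below. Its difference from dental lamina was -1.52 ± 0.64 (SE, adjusted p = 0.061 by limma), -2.37 without RT replicate 1 (adjusted p = 0.00047) and -2.59 without RT replicates 1 and 2 (adjusted p = 0.00054). FGF9 had 3.90, 10.2, 0.0789, 0.167 and 0.0457 RPKM in RT, so that replicate 2 was above every dental lamina library and replicates 3, 4 and 5 were below every one of them. Its difference was -1.40 ± 0.62 (SE, adjusted p = 0.073 by limma), -2.09 without RT replicate 2 (adjusted p = 0.0045), and -2.81 without RT replicates 1 and 2 (adjusted p = 9.31e-05). RT replicates 1 and 2 were the highest RT libraries for both ligands. The larger falls without these libraries follow from that choice, and the p-values of those fits are no added support. SHH stood at 49.5 and 150 RPKM in RT replicates 1 and 2, and at 5.72, 6.12 and 0.506 RPKM in replicates 3, 4 and 5.

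Set against early growth lamina alone, 5 of the 7 ligands were lower in RT, while 39% of all genes were called lower and 4.89% higher. FGF3 fell by 3.40 ± 0.80, FGF10 by 3.45 ± 0.51 and FGF7 by 2.21 ± 0.40 (SE, adjusted p = 0.0052, 0.00032 and 0.0014 by limma). These 3 calls were kept after median-ratio scaling, under which 6.35% of genes were lower. FGF7, FGF10, FGF16 and FGF2 had every RT library below every EG library, as had 30.4% of genes. FGF16, at -1.13 ± 0.36, and FGF2, at -0.77 ± 0.21 (SE, adjusted p = 0.021 and 0.0099 by limma), were not called after that scaling (adjusted p = 0.082 and 0.13). The FGF16 call was also lost without EG replicate 1, RT replicate 3 or RT replicate 5 (adjusted p = 0.069, 0.052 and 0.056 by limma). FGF9 differed from EG by -1.77 ± 0.78 in RT (SE, adjusted p = 0.073 by limma), by -2.14 without RT replicate 1 (adjusted p = 0.036), by -2.46 without RT replicate 2 (adjusted p = 0.0071) and by -3.18 without both (adjusted p = 0.00019). As above, the libraries left out were the highest RT libraries for FGF9, so the larger falls follow from that choice.

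The order of the group means summarises each ligand's course. For FGF3 the order was EG, IS, RT and PIS. FGF10 and FGF16 ran IS, EG, PIS and RT, as did FGF20. FGF7, FGF18 and FGF2 ran PIS, IS, EG and RT. FGF9 ran EG, IS, PIS and RT, and FGF4 ran IS, PIS, EG and RT. Neighbours in these orders had separate ranges only for FGF7 (PIS above IS, and EG above RT), FGF10 (EG above PIS), FGF18 and FGF20 (IS above EG) and FGF2 (EG above RT).

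FGF3 and FGF4 are neighbours in the genome. In the RefSeq annotation of the alligator assembly rAllMis1, used here for gene order alone, the protein-coding genes run CCND1, LTO1, FGF19, FGF4, FGF3 and ANO1. FGF19, an endocrine-type FGF, had 1.11, 0.270 and 1.10 RPKM in IS and 1.85, 1.20, 0.820 and 0.281 RPKM in EG, and was listed at 0 in all 5 PIS libraries. It had 1.34 RPKM in RT replicate 1 and at most 0.158 RPKM in the other RT libraries. FGF19 thus followed FGF3 library by library at a far lower level, and FGF4, which lies between them, did not. Over the 17 libraries Pearson's r with FGF3 on the log2 scale was 0.96 for FGF19 (Spearman's rho 0.95), 0.87 for CCND1, 0.46 for ANO1 and -0.01 for FGF4. LTO1 was not analysed here. FGF19 was called higher in IS than in PIS (adjusted p = 0.015 by limma) and in EG than in PIS (adjusted p = 0.0020 by limma). It passed the filter through IS and EG libraries alone (2 and 2 at 1 RPKM or more, 0 in PIS), which favours such calls. No fold is given for it because PIS was at 0. Whether reads of one gene were counted in its neighbour was not tested.

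**Figure D4:**
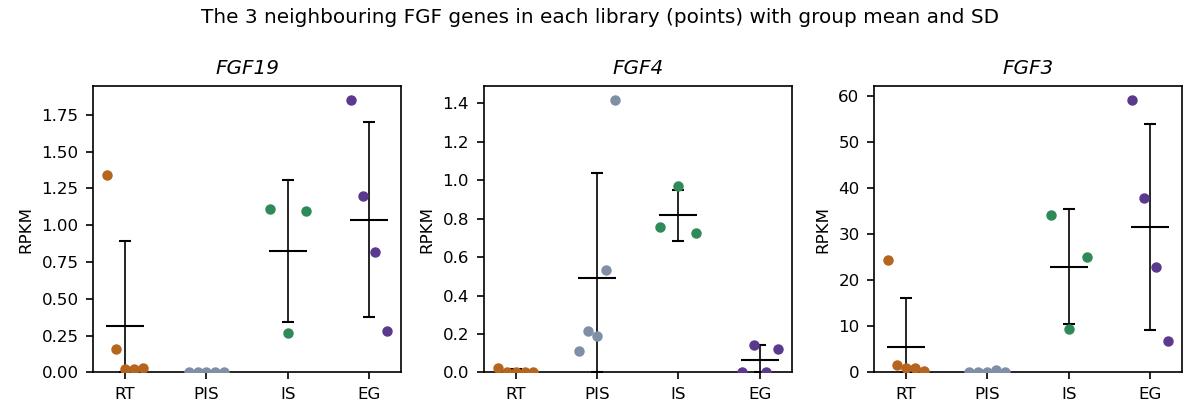
RPKM of the neighbouring genes FGF19, FGF4 and FGF3 in every library (points) of RT, PIS, IS and EG, with group mean and SD, each panel on its own linear axis; SD lines are cut at 0. FGF19 and FGF3 were both high in RT replicate 1, IS and EG, and FGF4 was at most 0.144 RPKM in EG.

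Other FGF ligands were sparse. Of 8 further ligands looked for, 6 were listed and 3 were tested. FGF1 had 2.74 ± 0.35 RPKM in EG (SD, n = 4), against 0.780 ± 0.661 RPKM in PIS (SD, n = 5), and rose by 1.504 ± 0.36 (SE, adjusted p = 0.0045 by limma). FGF22, of the FGF7 subfamily, had 0.301 ± 0.171 RPKM in EG (SD, n = 4), against 1.01 ± 0.610 RPKM in PIS (SD, n = 5), and fell by 0.84 ± 0.29 (SE, adjusted p = 0.031 by limma). FGF22 also fell in RT against dental lamina, by 0.99 ± 0.21 (SE, adjusted p = 0.0015 by limma). It passed the filter through PIS and IS libraries alone (2 and 1 at 1 RPKM or more, 0 in EG and 0 in RT). The filter thus favoured these calls of a fall. FGF5, FGF17 and FGF23 were at most 0.132 RPKM in any library. Of the intracellular FGF homologous factors, which are not secreted, 3 of 4 were listed and 0 were tested.

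Few receptors of these ligands were listed, so their counts are set beside the shares over all genes without a test. Of 7 receptors and co-receptors, 5 were listed and 4 tested. FGFR2 was the most abundant, with 26.7 ± 6.10 RPKM in IS (SD, n = 3), 24.5 ± 6.61 RPKM in EG (SD, n = 4), and 35.3 ± 9.72 RPKM in PIS (SD, n = 5), and its difference of IS and PIS was -0.38 ± 0.25 (SE, adjusted p = 0.26 by limma). Between IS and PIS, limma called 0 of the 4, with 0 after median-ratio scaling, where 22.7% of all genes were called higher and 2.25% lower (6.5% and 5.09% after scaling). FGFRL1, a receptor without a kinase domain, had 8.20, 5.79, 4.79 and 2.97 RPKM in EG, against 0.740, 0.962, 2.31, 0.956 and 0.430 RPKM in PIS, and rose by 1.94 ± 0.34 (SE, adjusted p = 0.00079 by limma). FGFR2 was lower in EG than in PIS only after median-ratio scaling (adjusted p = 0.017, against 0.073 as deposited, by limma), and FGFR4 fell in RT against dental lamina by 0.57 ± 0.15 (SE, adjusted p = 0.0051 by limma). The IIIb and IIIc forms of the receptors were not separated in these gene-level values. FGFR1 was not analysed here.

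Genes that FGF signalling is known to switch on were then examined. Of 16 such feedback and target genes, 15 were listed and tested, and 9 rose and 0 fell in IS against PIS (7 and 0 after median-ratio scaling), with a median difference of 1.13 beside 0.28 over all genes. Over all genes 22.7% were called higher and 2.25% lower there (6.5% and 5.09% after scaling). ETV4, a transcription factor that FGF signalling induces, had 26.7, 15.97 and 25.1 RPKM in IS, against 3.07, 4.13, 2.94, 7.14 and 1.48 RPKM in PIS, and rose by 2.55 ± 0.32 (SE, adjusted p = 0.00073 by limma). IL17RD, or SEF, a membrane inhibitor of the pathway, had 20.4, 6.87 and 17.4 RPKM in IS, against 1.47, 1.34, 1.45, 1.74 and 0.110 RPKM in PIS, and rose by 3.16 ± 0.41 (SE, adjusted p = 0.00085 by limma). SPRY2 (1.70), ETV1 (1.41), DUSP4 (1.19), SPRED1 (1.13), DUSP6 (0.89), ETV5 (0.78) and SPRED2 (0.64) made up the rest of the 9, with these differences on the log2 scale. The 9 did not order the IS libraries alike. IS replicate 2, the lowest IS library for FGF3 and FGF10, was also the lowest for ETV4, IL17RD, SPRED1 and SPRED2. It was the highest IS library for ETV1, DUSP4 and DUSP6, and lay between the others for SPRY2 and ETV5.

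In EG against PIS, 8 of the 15 rose and 1, FLRT2, fell (7 and 1 after scaling), with a median of 0.62 beside 0.34 over all genes. The unscaled count is near the share over all genes, 42.9% higher and 7.58% lower (17.5% and 14.8% after scaling). Between EG and IS, 1 gene was called. DUSP4, a phosphatase that acts on ERK, had 1.35, 1.68, 1.95 and 1.69 RPKM in EG, against 3.57, 4.38 and 3.17 RPKM in IS, and fell by 0.96 ± 0.17 (SE, adjusted p = 0.012 by limma). DUSP4 thus peaked in the same stage as FGF20, with no overlap between IS and any other group. In RT against dental lamina, 7 of the 15 fell and 1, FLRT3, rose (5 and 1 after scaling), where 36.3% of all genes were lower and 10.5% higher (17.5% and 20% after scaling). ETV4 in RT had 16.04 and 28.0 RPKM in replicates 1 and 2, and 3.22, 2.74 and 3.86 RPKM in replicates 3, 4 and 5, the same division of libraries as for FGF9.

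**Figure D5:**
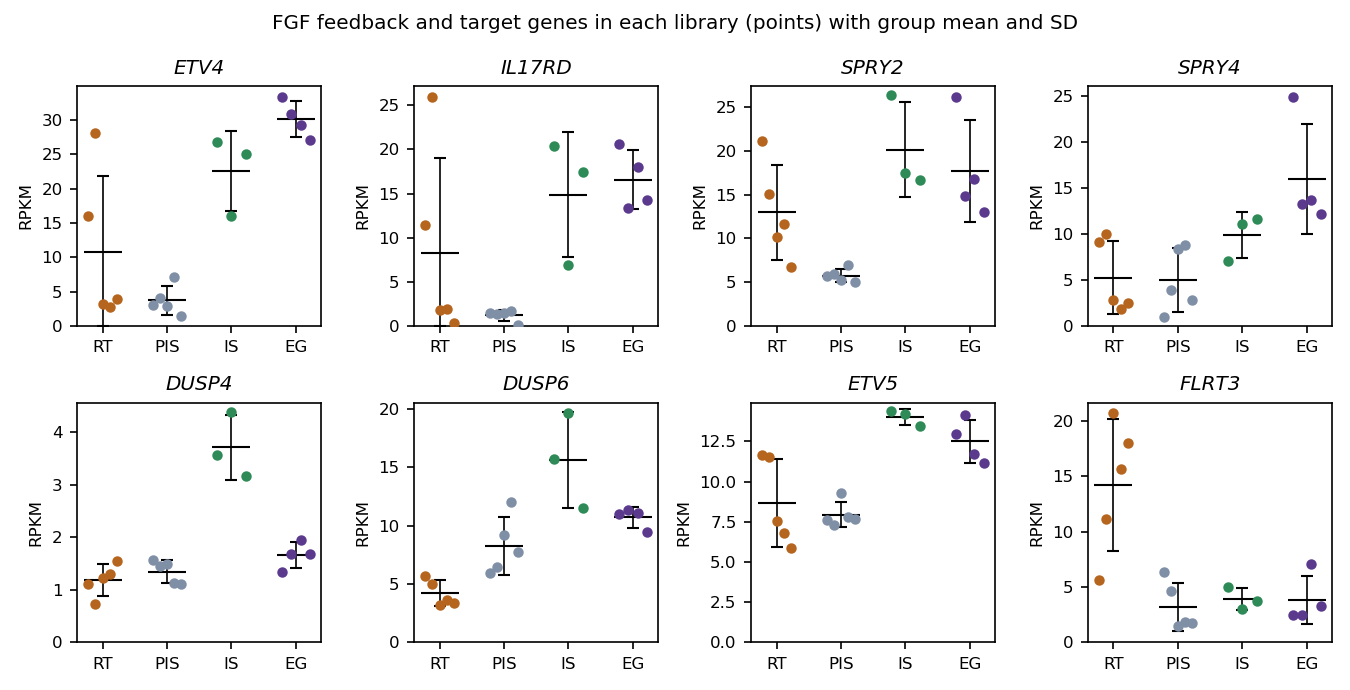
RPKM of 8 FGF feedback and target genes in every library (points) of RT, PIS, IS and EG, with group mean and SD, each panel on its own linear axis; SD lines are cut at 0. ETV4 and IL17RD were higher in every IS and EG library than in every PIS library, and DUSP4 was highest in IS.

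For each tested ligand, the 3 named genes most like it over the 17 libraries were sought among 11098 genes by Pearson's r on the log2 scale. FGF3 was most like ILF2 (r = 0.98), FGF19 (0.96) and CDC20 (0.96). FGF10 was most like DDX11 (0.97), TELO2 (0.96) and IGDCC4 (0.95). FGF7 was most like the integrin gene ITGA1 (0.97), FAM26E (0.96) and DIP2A (0.95). For FGF9 they were CYP2U1 (0.92), CDH6 (0.92) and RAD50 (0.91), and for FGF16 RAB24 (0.90), a gene that carries only a ZGC number (0.89) and PCNA (0.88). For FGF18 they were FHAD1 (0.93), RAD51B (0.90) and ANGPTL5 (0.89), and for FGF2 TMOD2 (0.94), C1QTNF2 (0.93) and WRB (0.92). These are the highest of many coefficients over libraries that fall into groups, and they carry no test.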

How the data were processed

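RPKM values deposited by the authors were used for 17 libraries made from total RNA with Illumina TruSeq RNA V2. TopHat2 2.1.0 and Partek 3 are named, with no role given, per the submitters' processing notes. Genome build and annotation: not given in the sources used here. Strand is not stated either, and overlapping or antisense reads cannot be told apart. Groups came from sample titles, since a separate stage label reads pre-initiation for every sample. Depth was 9667270 to 37747400 alignments. The RPKM were not turned back into reads, and counting error is therefore not shown.

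On the scale of log2(RPKM + 0.5), group means were fitted by limma 3.58.1 (R 4.3.3; empirical Bayes with trend). The filter asked for 1 RPKM or more in 3 or more libraries and left 12684 genes in the dental lamina fit (the 3 stage comparisons and the F test) and 12904 genes in the fit of all 17 libraries (RT versus the mean of the 3 stage means, RT versus EG). Adjustment was by Benjamini-Hochberg over all genes. Because the median gene shifted by 0.28 in IS versus PIS, 0.34 in EG versus PIS, -0.24 in RT versus dental lamina and -0.37 in RT versus EG, median-ratio scaling was run beside the main analysis. Ratios were tested with exact permutation tests in scipy 1.17.1. The fits were tested on simulated data.

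The ligands, gene lists and tests were chosen with earlier results of these data known. All listed ligands are named, with called members of the FGF lists and the 3 most similar genes of each tested ligand. Alternatives were other pseudocounts (0.1 and 1), other filters, quantile scaling beside the median-ratio one, no trend, array weights, other libraries in the fit, leaving out each library, and a replicate block. Chosen after seeing the data were 2 joint exclusions (PIS replicates 4 with 5, RT replicates 1 with 2) and the FGF10 to FGF7 ratio.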

Additional observations from a re-analysis of the deposited data

Results flagged for a closer look

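In 8 of 26 sets of one ligand in one group, 1 library stood apart from the others of its group by Dixon's criterion at the 95% level, which chance alone gives in about 1 in 20 sets of normally distributed values. RPKM near 0 are not so distributed, and where 4 of 5 libraries are listed at 0, as for FGF4 in RT and FGF20 in PIS, any value above 0 meets the criterion. FGF3 stood at 24.5 RPKM in RT replicate 1, against 0.266 to 1.56 RPKM in the other RT libraries, and at 0.496 RPKM in PIS replicate 4, against 0 to 0.0792 RPKM in the other PIS libraries. FGF10 stood at 6.15 RPKM in RT replicate 1, against 0.189 to 0.618 RPKM, and at 4.40 RPKM in PIS replicate 1, against 1.99 to 2.48 RPKM. FGF4 stood at 0.0243 RPKM in RT replicate 1 and was listed at 0 in the other RT libraries. FGF16 stood at 1.65 RPKM in PIS replicate 4, against 0.201 to 0.572 RPKM. FGF20 stood at 0.0763 RPKM in PIS replicate 4, with the other PIS libraries at 0, and at 0.519 RPKM in EG replicate 1, against 0.0527 to 0.103 RPKM in the other EG libraries. RT replicate 1 and PIS replicate 4 each stood apart for 3 ligands.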

How the results depend on the processing

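Among 1061 recomputed values of single ligands and of the FGF10 to FGF7 ratio, 974 kept their direction and their side of the threshold. The F test has no direction, and the ratio was judged on its unadjusted p. Of the rest, 29 no longer passed the threshold, 36 newly passed it and 22 changed sign, none of those 22 being called in the main analysis. Of the 29, 8 were the ratio in IS versus PIS and 9 the ratio in RT versus EG. These were not lost calls, as the ratio passed no threshold after adjustment. The 8 each left out 1 library, where the exact permutation p can be no lower than 0.057, so they could not have passed. The number of ligands called in EG versus IS was 0, and was 1 with no filter and 3 with array weights. In EG versus PIS it was 3, and 5 without PIS replicates 4 and 5. Among the stages it was 3, and 5 with no filter or with array weights. In RT versus dental lamina it was 5, and 3 under the stricter filter, which tests 5 ligands. In RT versus EG it was 5, and 3 with median-ratio or quantile scaling. With each library left out, the counts were 2 to 4 (IS versus PIS), 0 to 0 (EG versus IS), 3 to 4 (EG versus PIS and the F test), 4 to 7 (RT versus dental lamina) and 4 to 6 (RT versus EG). The cause was not tested, apart from the smaller number of ligands under the stricter filter. The number of calls over all genes moved with the setting too. In EG versus IS it rose with no filter, where more genes were tested, and rose steeply with array weights. In IS versus PIS it fell with median-ratio or quantile scaling and rose with array weights. The ligand counts above are given without shares over all genes, so their shifts cannot be read as particular to the ligands.

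Sign changed for FGF2 in IS versus PIS: -0.22 with median-ratio scaling, -0.30 with quantile scaling, -0.23 without PIS replicates 4 and 5, and -0.098 to 0.16 with single libraries left out. In EG versus IS, FGF3 was -0.19 with array weights and -0.26 to 0.86 with single libraries left out, FGF10 was -0.38 to 0.17, FGF16 -0.63 to 0.0051, FGF2 -0.11 to 0.0093 and the FGF10 to FGF7 ratio -0.021 to 0.43. FGF18 in IS versus PIS was -0.36 to 0.0074 and FGF2 in EG versus PIS -0.16 to 0.10.

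Whether replicate numbers pair the samples is not known. With group means taken out, 22 same-numbered pairs correlated at -0.48 to 0.36, 8 of them above 0.1. Pairs with different numbers were not computed, so these values cannot decide it. With the replicate block, 2 ligands were called in IS versus PIS, 0 in EG versus IS, 4 in EG versus PIS, 3 among the stages and 5 in each RT comparison. The number of calls over all genes in IS versus PIS also fell with the block. Shares over all genes are not given for these counts, so their shifts cannot be read as particular to the ligands. Under the block FGF7 in IS versus PIS was -0.80 (adjusted p = 0.057 by limma), FGF18 in EG versus PIS -1.03 (adjusted p = 0.023), FGF2 in IS versus PIS -0.14 and FGF10 in EG versus IS 0.085. How far depth limits the ligands at low RPKM (FGF4, FGF20, FGF18) was not measured.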

Other observations

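FGFs need heparan sulfate to reach and bind their receptors, and genes that make, carry or trim it were examined as a list. Of 15 tested genes of heparan sulfate and FGF binding, 10 rose and 2 fell in EG against PIS (4 and 2 after median-ratio scaling), with a median of 0.46 beside 0.34 over all genes. Over all genes 42.9% were higher and 7.58% lower (17.5% and 14.8% after scaling), so the scaled counts are near those of all genes. In RT against dental lamina 2 rose and 7 fell (4 and 5 after scaling), where 10.5% of all genes were higher and 36.3% lower (20% and 17.5% after scaling). GPC3, a heparan sulfate proteoglycan of the cell surface, had 14.7 ± 1.83 RPKM in EG (SD, n = 4), against 3.01 ± 1.12 RPKM in IS (SD, n = 3) and 0.981 ± 1.23 RPKM in PIS (SD, n = 5). It rose by 2.16 ± 0.47 in EG against IS (SE, adjusted p = 0.031 by limma) and by 3.66 ± 0.41 in EG against PIS (SE, adjusted p = 9.40e-05 by limma). FGFBP1, a secreted protein that frees FGFs from the matrix, had 26.0 ± 19.3 RPKM in RT (SD, n = 5), against 114 ± 29.9 RPKM in EG (SD, n = 4), and fell by 2.43 ± 0.52 (SE, adjusted p = 0.0032 by limma).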
